A study of Drosophila melanogaster with 2 samples.

Results

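Binding of the eGFP-tagged zinc-finger protein ranshi was measured by chromatin immunoprecipitation sequencing (ChIP-seq) in 2 biological replicates of whole embryos of 0 to 24 h. It was described at 10 genes of the ecdysone response. They were EcR, usp, Eip74EF, Eip75B, Eip78C, br, ftz-f1, Hr3, Hr78 and E23, chosen by symbol from the 13968 protein-coding genes of the dm6 annotation. A peak was assigned to a gene when its summit, the reported point of highest signal, lay within 500 bp of a transcript start, inside the gene, or within 5 kb of its ends. The gene with its 5 kb flanks is called the locus below. At 8 of the 10 loci, at least 1 peak of the series' conservative set was found, where 36.3% of all protein-coding loci had one. These loci are long, and per 100 kb they held 2.52 conservative peaks, against 2.49 at all loci. The 2 strongest were in an intron of Hr3 and just upstream of the only E23 start. EcR and usp, which encode the hormone receptor itself, had none in that set. Of the 15 conservative peaks at the loci, 12 were intronic and 3 were in the top 25% of the set by signal. No intronic share over the whole set stands beside the 12, so they are not read as a trait of these loci.

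Ecdysone is the steroid hormone that times moults and metamorphosis in insects and that also acts in the embryo. Its receptor is a pair of nuclear receptors, EcR and usp, that binds DNA and switches on early genes, among them Eip74EF, Eip75B and br. The products of the early genes are themselves transcription factors, which act on a second tier of genes that includes Hr3 and ftz-f1. Ranshi belongs to the zinc-finger associated domain (ZAD) family of DNA-binding proteins, and its paralog ouija board is known as an activator of ecdysone synthesis. The genes are long and many have several promoters, so that isoforms with different first exons come from 1 locus.

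In the annotation used, EcR (FBgn0000546) lies at 2R:6087873-6169087, usp (FBgn0003964) at X:2038798-2042311, Eip74EF (FBgn0000567) at 3L:17558672-17619325 and Eip75B (FBgn0000568) at 3L:17950953-18064696. Eip78C (FBgn0004865) lies at 3L:21226609-21266503, br (FBgn0283451) at X:1575132-1664869 and ftz-f1 (FBgn0001078) at 3L:18750607-18801309. Hr3 (FBgn0000448) lies at 2R:10203995-10237348, Hr78 (FBgn0015239) at 3L:21494019-21497494 and E23 (FBgn0020445) at 2L:3334875-3354829. The median length of the 10 genes was 45.3 kb, with a range of 3.48 to 114 kb, and that of all protein-coding genes was 2.16 kb. The 10 genes had 3.50 promoters per gene, where starts within 100 bp of each other count as 1 promoter, and all genes had 1.36. At least 3 promoters were annotated for 8 of the 10 genes (80.0%), and for 7.04% of all protein-coding genes.

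The study holds 2 biological replicates of 1 group, whole embryos of 0 to 24 h from a fly line that carries an insertion of a ranshi gene fused to eGFP. The immunoprecipitation used an antibody against GFP, although a label field names ranshi as the antibody. The sources used here give neither the promoter that drives the fusion nor the state of the untagged ranshi gene. Whole embryos of many ages are mixed, so binding in a few cells and weak binding in many cannot be told apart. The files were peak lists, not reads, so the sequencing depth is unknown, and control libraries were not analysed here. The authors' conservative set held 2984 peaks and their larger set 5373, while the set of replicate 1 held 3636 and that of replicate 2 held 3149. Each set was cut at a global irreproducible discovery rate (IDR) of 0.01, the estimated share of peaks that would not recur in a repeat. Behind them stand ranked lists of candidates, 112688 in replicate 1 and 83284 in replicate 2. Signal is the peak caller's own value for the peak and is not scaled between lists, so the rank within the list, where 1 is the highest signal, is given beside it. The signal used is 1 value per peak and list, so no value has a replicate error of its own. The 2 replicate lists are given side by side instead. Per-input values that the 2 series ranked lists also hold were left unused.

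The sequences of 5 sites at 4 genes are shown first, because both replicates had a thresholded peak there. They are 5 of the 8 such sites, and the others are 2 at Hr3 and 1 at Eip75B. They are given from the RefSeq dm6 assembly in the direction of the gene's transcription. The E23 and br peaks are whole, and for ftz-f1 and Hr78 the summit of the conservative peak is shown with 50 bp to each side. In this set of lines, capitals would mark the word CACTG or its reverse complement, and no line contains it.
E23 promoter peak, 2L:3354968-3355201, minus strand: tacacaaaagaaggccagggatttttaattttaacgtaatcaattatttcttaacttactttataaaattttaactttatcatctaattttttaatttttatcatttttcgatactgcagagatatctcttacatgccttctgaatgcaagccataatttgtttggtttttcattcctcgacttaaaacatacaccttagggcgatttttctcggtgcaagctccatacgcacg
E23 intronic peak, 2L:3348247-3348362, minus strand: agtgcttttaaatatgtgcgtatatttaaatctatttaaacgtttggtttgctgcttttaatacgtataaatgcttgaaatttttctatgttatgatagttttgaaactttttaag
br intronic peak, X:1618831-1618919, plus strand: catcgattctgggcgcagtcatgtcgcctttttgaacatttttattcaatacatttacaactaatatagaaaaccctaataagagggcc
ftz-f1 intronic summit, 3L:18784694-18784794, minus strand: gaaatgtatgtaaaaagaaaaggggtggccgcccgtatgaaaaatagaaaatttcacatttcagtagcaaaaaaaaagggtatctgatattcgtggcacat
Hr78 promoter summit, 3L:21496948-21497048, minus strand: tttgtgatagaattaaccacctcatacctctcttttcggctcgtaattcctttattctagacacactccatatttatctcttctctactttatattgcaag

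The base composition of these lines differed from site to site. Over the 15 conservative peaks at the 10 loci, the sequence within 50 bp of the summit had a median G+C content of 34.7% and a range of 24.8% to 57.4%. Over all 2984 conservative peaks the median was 31.7%. In the larger set the mean G+C content was 41.5% ± 13.5 (SD over 45 peaks) at the 10 loci and 35.7% ± 10.9 (SD over 5359 peaks) over all peaks. The lowest conservative value at the 10 loci, 24.8%, was that of the E23 intronic peak, and the lowest in the larger set, 21.8%, was at an Eip75B intronic peak.

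The strongest signal of the 10 loci was at Hr3, a nuclear receptor of the second tier and the fly counterpart of the vertebrate ROR receptors. Its intronic peak at 2R:10219947-10220192, 7898 bp downstream of the closest Hr3 start, had a signal of 712 and rank 79 of 2984 in the conservative set. The same site had a signal of 544 and rank 65 in the replicate 1 set, and a signal of 164 and rank 175 in the replicate 2 set. It was high in every list. Another intronic peak of Hr3, 2889 bp upstream of a start, had signal 188 and rank 985 in the conservative set, rank 1110 in replicate 1 and rank 846 in replicate 2. Both summits lie inside CG12912 as well, and the stronger one also inside CG46321, which shares a start with Hr3, so the gene that a summit belongs to cannot be told from position. Neither peak lay at an Hr3 promoter. At the promoter of Hr3-RA, Hr3-RF and Hr3-RH a peak of the larger set had signal 49.7 and rank 5109, 7 bp from the start. This is the start shared with CG46321, and the summit also lies inside CG12912 and CG46321. The site had signal 49.7 and rank 1829 in the replicate 2 set and no candidate in replicate 1. The other 2 Hr3 promoters had candidates below the threshold only, of signal 30.7 and 41.6 in the conservative ranked list. Among the weaker sites, an intronic one 17107 bp downstream of a start and 497 bp from that of lncRNA:CR46322 had signal 113 and rank 2096 in the larger set and signal 43.5 and rank 2279 in replicate 2. Intronic sites 995 bp upstream and 2221 bp downstream of a start passed in replicate 1 only, with signals of 44.3 and 43.2.

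E23, which encodes an ATP-binding cassette transporter of the membrane that limits the ecdysone response, had the strongest promoter peak of the 10 genes. Its summit lay 232 bp upstream of the start shared by the 3 annotated transcripts, at 2L:3354968-3355201, and the conservative signal was 490, rank 171. The site had signal 366 and rank 145 in the replicate 1 set, and signal 116 and rank 369 in the replicate 2 set. The intronic peak 6516 bp downstream of the start had signal 227 and rank 728 in the conservative set, rank 750 in replicate 1 and rank 905 in replicate 2. These 2 peaks were thresholded in all 4 sets. A further intronic site, 15790 bp downstream and 6225 bp from the closest start, that of CG15408, had signal 131 and rank 1703 in the larger set. It was thresholded in replicate 1, with signal 112 and rank 1170, and was a candidate of rank 9043 in replicate 2.

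**Figure D1:**
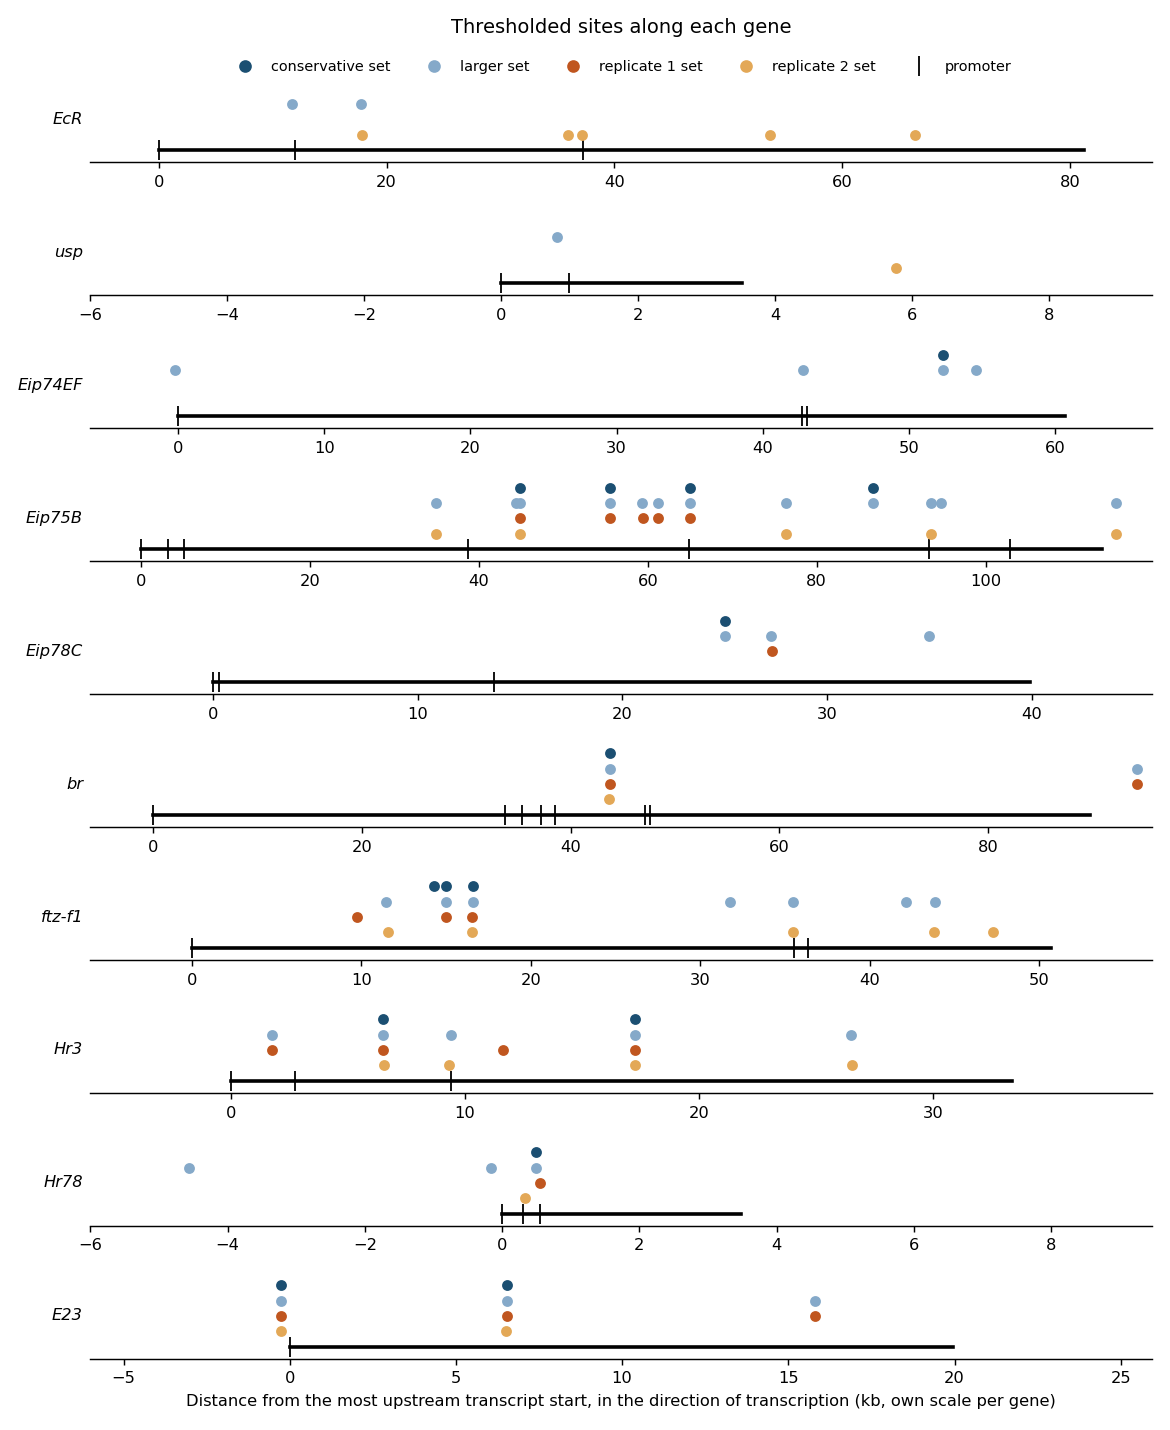
Sites with a thresholded peak along each of the 10 genes, on a horizontal axis in kb from the most upstream start in the direction of transcription, with a scale of its own for each gene. Black lines are genes, black ticks promoters, and dots peaks of the conservative, larger, replicate 1 and replicate 2 sets from top to bottom, 1 dot per set for overlapping peaks. All 4 sets have a dot at 2 sites each of Hr3 and E23 and at 1 site each of Eip75B, br, ftz-f1 and Hr78, and at no site of EcR, usp, Eip74EF or Eip78C.

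The receptor genes had no conservative peak, and their peaks came from the other sets. EcR, the hormone-binding receptor, had none in the replicate 1 set either. The replicate 2 set held 7 EcR peaks at 5 sites, and the larger set held 3 at 2 sites, the weakest with signal 5.83 and rank 5314. The highest was an intronic site 5809 bp downstream of an EcR start, 1356 bp from tRNA:Asn-GTT-1-1, with signal 222 and rank 774 in the larger set and signal 78.7 and rank 790 in the replicate 2 set. In the larger set, only Hr3 and E23 of the 10 genes had a peak of higher signal. At the promoter of EcR-RD and EcR-RE a peak of the larger set had signal 72.2 and rank 3728, with its summit 280 bp upstream. At the promoter of EcR-RB, EcR-RC and EcR-RG, the replicate 2 set had a peak of signal 54.3 and rank 1528, 23 bp from the start. The EcR-RA promoter had a candidate of signal 26.9 in replicate 2 only. An intronic site 29148 bp downstream of an EcR start passed in replicate 2 with signal 42.9. It lay 17068 bp from the closest start, that of Ars2. At none of the 6 EcR sites did replicate 1 list even a candidate, while replicate 2 listed one at all 6.

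The usp gene encodes the partner of EcR and the fly counterpart of the vertebrate RXR receptors. It had 1 peak in the larger set, 181 bp upstream of the usp-RA start, with signal 96.1 and rank 2589, and it also lies inside the overlapping gene Actn. The same place was a candidate of signal 92.3 and rank 1553 in replicate 1 and of signal 19.5 and rank 14527 in replicate 2. Although it ranked high in replicate 1, its score there was 28, far under the minimum of 830 that the thresholded peaks have. The second usp site, thresholded in replicate 2 with signal 40.4 and rank 2531, lay inside Actn and 71 bp from a start of Actn. The usp-RB promoter had candidates of signal 17.6 in replicate 1 and 22.8 in replicate 2.

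**Figure D2:**
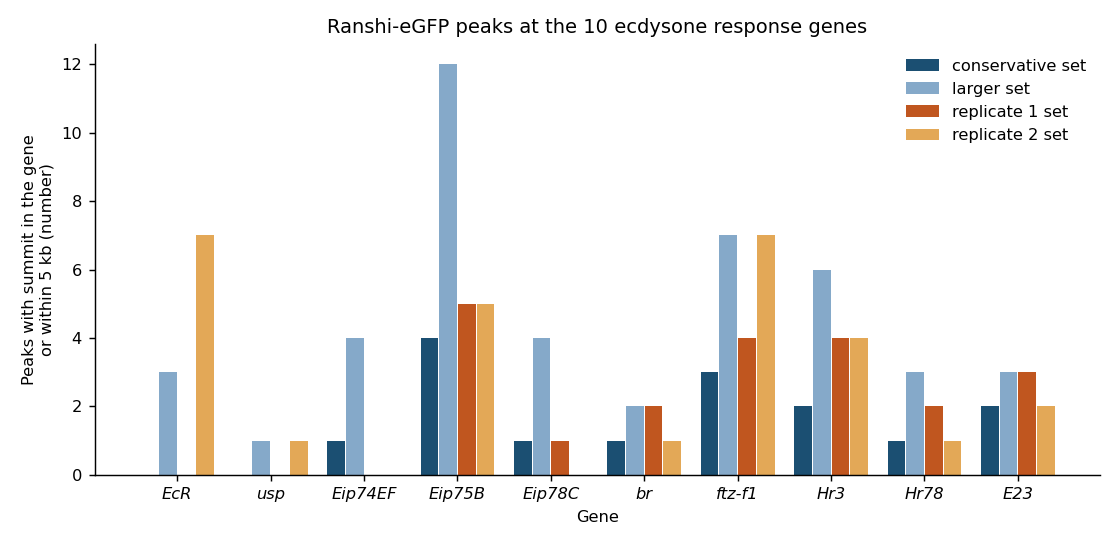
Number of peaks with the summit in the gene or within 5 kb of it, for each of the 10 genes, with 1 bar for each of the 4 thresholded sets. Eip75B had the most in the larger set (12), EcR had 7 in the replicate 2 set and 0 in the conservative and replicate 1 sets.

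Among the early genes, Eip75B had the most peaks. It encodes a set of nuclear receptor isoforms of the vertebrate REV-ERB type. The conservative set held 4 peaks at the locus, the larger set 12, the replicate 1 set 5 and the replicate 2 set 5. Of its 7 promoters, 1 had a conservative peak, that of Eip75B-RC, with the summit 64 bp downstream of the start, signal 172 and rank 1111. Replicate 1 had signal 113 and rank 1157 there, and replicate 2 had a candidate of signal 51.8 and rank 1778, with a score of 545 that kept it out of the set. At the Eip75B-RA promoter the larger set had a peak of signal 58.5 and rank 4674, and the replicate 2 set one of signal 41.3 and rank 2469. The other 5 promoters had candidates only, of signal 15.6 to 38.1 in the larger ranked list. The intronic peak 6215 bp downstream of a start had signal 150 and rank 1333 in the conservative set, signal 66.8 and rank 2222 in replicate 1, and signal 88.3 and rank 620 in replicate 2. It was the only Eip75B site that passed in both replicates. The intronic peak 9371 bp upstream of a start had signal 136 and rank 1506 in the conservative set, passed in replicate 1 with rank 1394, and was a candidate of rank 3333 in replicate 2. The intronic peak 6546 bp upstream lay 3856 bp from the closest start, that of lncRNA:CR45921. It had signal 72.6 and a score of 831, just inside the limit, and passed in neither replicate. Of the weaker Eip75B sites, the pair 5507 and 3722 bp upstream of the Eip75B-RC start passed in replicate 1 only, with signals of 67.4 and 52.6, and in the larger set with 92.1 and 73.6. The intronic site 3737 bp upstream of the Eip75B-RG start passed in replicate 2 with signal 81.1 and rank 739, had signal 84.7 in the larger set, and had no candidate in replicate 1. A site past the end of the gene, 1555 bp from the start of lncRNA:CR45393, passed in replicate 2 with signal 56.4. Sites that passed in 1 replicate only were thus 4 in replicate 1 and 4 in replicate 2, at different places along the gene.

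**Figure D3:**
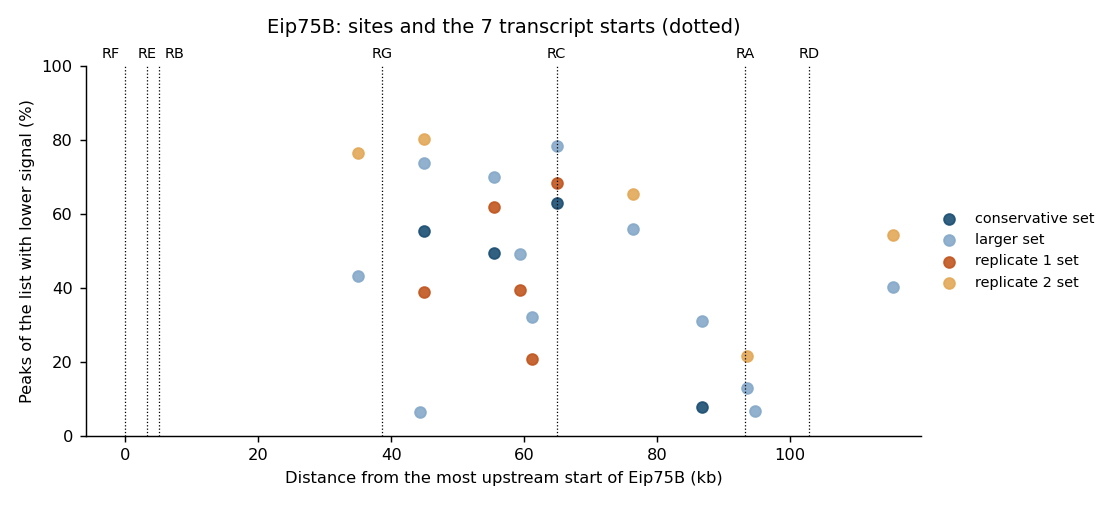
Thresholded sites of Eip75B by their distance from its most upstream start in kb, against the share of the peaks of the same list that have a lower signal, in per cent. Dotted lines are the 7 starts, labelled by transcript, and the only 2 with a dot on them are RC and RA.

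A pair of intronic Eip75B peaks held the same 8-letter word near the summit. The word ATGGCGCC was added to the search after the data were seen. As background, its letters overlap the known core of the binding sequence of the insulator protein CTCF in Drosophila, which was not measured here. Each site is shown with 10 bases to each side of the word, on the strand on which it reads ATGGCGCC, in capitals.
Eip75B intron, summit 6215 bp after a start, 3L:18019839-18019866, plus strand: ccaccgtcagATGGCGCCacacgctaaa
Eip75B intron, summit 11510 bp after a start, 3L:17988337-17988364, plus strand: ctaacactagATGGCGCCagtatgttat

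The first of these belongs to the peak of signal 150 described above. The second is at a site 6470 bp from the closest start, that of lncRNA:CR45921. It had signal 104 and rank 2373 in the larger set, signal 65.7 and rank 1092 in the replicate 2 set, and no candidate in replicate 1. Within 50 bp of the summit, the word was present at 1 of the 15 conservative peaks of the 10 loci and at 19 of all 2984 (0.637%). It was present in the larger set at 2 of 45 and at 30 of 5359 (0.560%). Both of the peaks that hold it there were Eip75B peaks, and no other of the 10 loci had it in either set. In the replicate 1 set the word was within 50 bp of the summit at 0 of 21 peaks of the 10 loci and at 0.475% of all. The replicate 1 peak at the first site, 3L:18019656-18019951, does include the word, but not wholly within that window. The 0 is therefore not read as a difference between replicates. In the replicate 2 set the word was at 2 of 28 and at 0.667% of all.

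Eip74EF, an early gene that encodes a transcription factor with an ETS domain, had 1 conservative peak. It lay in an intron, 9315 bp downstream of an Eip74EF start and 9217 bp from the closest start, that of CycT. It had signal 63.7 and rank 2845, near the bottom of the list. It passed in neither replicate, where it was a candidate of signal 38.0 and rank 4567 in replicate 1 and of signal 33.4 and rank 4193 in replicate 2. Peaks of the larger set of signal 54.0, 212 bp upstream of the start of Eip74EF-RA, Eip74EF-RC and Eip74EF-RE, and of signal 58.5, 72 bp downstream of the Eip74EF-RB start, brought all 3 promoters within 500 bp of a summit. They ranked 4947 and 4676 of 5373. A peak in a coding exon, 11606 bp downstream of an Eip74EF start and 6926 bp from that of CycT, had signal 53.8 and rank 4960. No Eip74EF site passed in either replicate alone. The conservative summit is shown with 50 bp to each side because the window holds CACTG, here on the opposite strand as CAGTG in capitals.
Eip74EF intronic summit, 3L:17566955-17567055, minus strand: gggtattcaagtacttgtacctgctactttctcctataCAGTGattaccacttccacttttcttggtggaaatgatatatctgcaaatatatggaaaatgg

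The early gene br encodes a family of transcription factors with a BTB domain and alternative zinc fingers. It had 7 promoters, and none of them had a peak within 500 bp in any of the 4 thresholded sets. Candidates were listed at all 7 in the larger ranked list, with signals of 6.01 to 27.6. The 1 conservative peak at the locus was intronic, at X:1618831-1618919, with signal 191 and rank 955, and passed in both replicates, with signal 145 and rank 779 in replicate 1 and signal 42.3 and rank 2377 in replicate 2. Its summit was 3448 bp from the closest br start, but only 705 bp from the start of Mur2B, a gene nested in br. The summit lies inside Mur2B as well. The other site, thresholded in the larger set with signal 118 and rank 1988 and in replicate 1 with signal 109, lay beyond the end of br and 105 bp from a start of CG3740.

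Of the nuclear receptors ftz-f1, Hr78 and Eip78C, ftz-f1 had the most peaks. It provides competence for the late responses in the prepupa. Its 3 conservative peaks were in 1 intron, 14292, 15016 and 16565 bp downstream of the ftz-f1-RB start, and all lie inside lncRNA:CR45939. The strongest, 16565 bp downstream, had signal 147 and rank 1369, with signal 75.0 and rank 1950 in replicate 1 and signal 64.9 and rank 1119 in replicate 2. The next, with signal 88.4 and rank 2394, passed in replicate 1 only, with rank 2974. The last, with signal 78.6 and rank 2637, passed in neither replicate and was absent from the larger set. At the promoter of ftz-f1-RC and ftz-f1-RD the larger set had a peak of signal 67.3 and rank 4054, 86 bp upstream, and the replicate 2 set one of signal 65.4 and rank 1099. Replicate 1 listed no candidate there, and the ftz-f1-RA promoter had no candidate in any list. An intronic site 11451 bp downstream of the ftz-f1-RB start had signal 72.7 in the larger set and signal 59.0 and rank 1319 in replicate 2, and one 3797 bp upstream of the ftz-f1-RC start had signal 106 and rank 2288 in the larger set. Toward the end of the gene, a site 54 bp from the start of lncRNA:CR45938 passed in replicate 2 only, with signal 26.2 and rank 3025. Over the 10 ftz-f1 sites, 1 passed in both replicates, 2 in replicate 1 only and 4 in replicate 2 only.

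Hr78, a nuclear receptor gene of 3.48 kb, had 1 conservative peak, with signal 93.6 and rank 2294, 57 bp upstream of the Hr78-RF start. Its 3 promoters all lie within 500 bp of that summit, so this peak gave 3 of the 5 promoters counted for the conservative set. It passed in both replicates, with signal 55.3 and rank 2736 in replicate 1 and signal 42.2 and rank 2392 in replicate 2. The summit also lies inside asRNA:CR43933. The larger set held 2 more peaks at the Hr78 locus. The first, of signal 73.7, lay 155 bp upstream of the start of Hr78-RA, Hr78-RB, Hr78-RC and Hr78-RD. It was also 112 bp from the start of asRNA:CR43933, and lies inside that gene and Glg1. The second, of signal 56.1, lay 640 bp from the start of Est-Q, inside Est-Q and Glg1. Eip78C, a nuclear receptor related to Eip75B, had 1 conservative peak, in an intron 11269 bp downstream of an Eip78C start. A start of CG43218 was closer, at 6404 bp, and was also the closest at the other Eip78C sites. The conservative peak had signal 64.7 and rank 2838. It passed in neither replicate, where it had signal 37.2 and rank 4729 in replicate 1 and signal 35.0 and rank 3812 in replicate 2. Another intronic site, 13542 bp downstream, had signal 63.4 in the larger set and passed in replicate 1 with signal 47.8 and rank 3117. The highest signal of Eip78C in the larger set, 66.4 with rank 4102, was at an intronic site 21238 bp downstream that held 2 peaks of that set and passed in neither replicate. No Eip78C site passed in replicate 2, and its 3 promoters had no thresholded peak in any set.

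The conservative signals over the 15 peaks had a median of 147 and a range of 63.7 to 712, and the median over the whole set was 137. Of the 15, 3 were in the top 25% of the list and 7 were below its median. The 5 of highest signal, at Hr3, E23, E23, br and Hr3, were 246, 234, 116, 89 and 84 bp wide, while the other 10 had the 316 bp that 65.6% of the set has, where the summit is in nearly all cases the centre of the interval. All 5 passed in both replicates. Among these 15 peaks, 3 were at promoters and 12 in introns outside promoters. Of the larger set's peaks, 13 of 45 were at promoters, 27 in introns, 2 in coding exons and 3 outside the gene. The sets of replicate 1 and replicate 2 had 4 of 21 and 6 of 28 at promoters. No promoter or intron shares over all peaks of each list stand beside these counts, so they describe the 10 loci only.

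Counted by gene, 3 of the 10 genes had a conservative peak within 500 bp of a start, Eip75B, Hr78 and E23, where 12.7% of all protein-coding genes had one. In the larger set the count was 8 of 10, with 20.5% over all genes. It was 3 of 10 in replicate 1, with 14.5% over all genes, and 6 of 10 in replicate 2, with 13.9%. Genes with more starts have more chances to be counted, so the same was counted per promoter. Of the 35 promoters of the 10 genes, 5 (14.3%) had a conservative peak and 11.1% of all 18945 promoters had one. In the larger set it was 13 (37.1%) against 18.3%, in replicate 1 it was 5 (14.3%) against 12.8%, and in replicate 2 it was 8 (22.9%) against 12.3%. Before any threshold, a candidate lay within 500 bp of 24 of the 35 promoters (68.6%) in replicate 1 and of 25 (71.4%) in replicate 2, with 57.7% and 72.3% over all promoters. Per promoter, the thresholded conservative and replicate 1 shares were near the shares over all promoters, and those of the larger and replicate 2 sets were above them. A peak near several promoters counts at each of them. In every thresholded set, all 3 Hr78 promoters were within 500 bp of peaks at 1 site. In the larger set 1 peak of signal 58.5 counted for both Eip74EF-RB and Eip74EF-RD.

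By locus, 8 of the 10 genes had a conservative peak, where 36.3% of all protein-coding genes had one, 10 of 10 had a peak of the larger set (51.2% over all genes), 7 had one of replicate 1 (40.0%) and 8 had one of replicate 2 (38.2%). Length enters these counts. Per 100 kb of locus, the conservative set had 2.52 peaks at the 10 loci, over 596 kb, and 2.49 at all protein-coding loci. The replicate 1 set had 3.52 at the 10 loci and 2.92 at all loci, the replicate 2 set 4.70 and 2.67, and the larger set 7.55 and 4.44. These 3 counts include peaks near the floor of their list. The lowest signals at the loci were 7.26 in replicate 1, 3.38 in replicate 2 and 3.21 in the larger set, against 63.7 in the conservative set. In the conservative set the density thus lay at the level of all loci. By gene it ran, in the conservative set, from 0 at EcR and usp, over 1.00 at br and 1.42 at Eip74EF, to 6.68 at E23 and 7.42 at Hr78, where the counts are 2 peaks at E23 and 1 at Hr78.

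The replicates differed in which of the loci they reached. Merging overlapping thresholded peaks of all 4 sets gave 51 sites, of which 8 passed in both replicate sets, 11 in replicate 1 only, 16 in replicate 2 only and 16 in neither. Candidates were listed at 33 of the 51 in replicate 1 and at 50 in replicate 2. The sites were defined by the replicate sets among others, so a site thresholded in a replicate has a candidate there by construction. No share over all sites merged this way stands beside these counts. Of the 15 conservative peaks, 8 (53.3%) overlapped a thresholded peak in both replicates, 3 (20.0%) in replicate 1 only, 0 in replicate 2 only and 4 (26.7%) in neither. Over all conservative peaks, 59.5% overlapped one in both, 27.0% in replicate 1 only, 6.07% in replicate 2 only and 7.44% in neither. Of the 45 peaks of the larger set, 8 (17.8%) passed in both, against 33.0% of all its peaks, 9 (20.0%) in replicate 1 only, against 29.6%, 11 (24.4%) in replicate 2 only, against 15.9%, and 17 (37.8%) in neither, against 21.5%. The 8 conservative peaks found in both were 2 at Hr3, 2 at E23, and 1 each at Eip75B, br, ftz-f1 and Hr78.

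**Figure D4:**
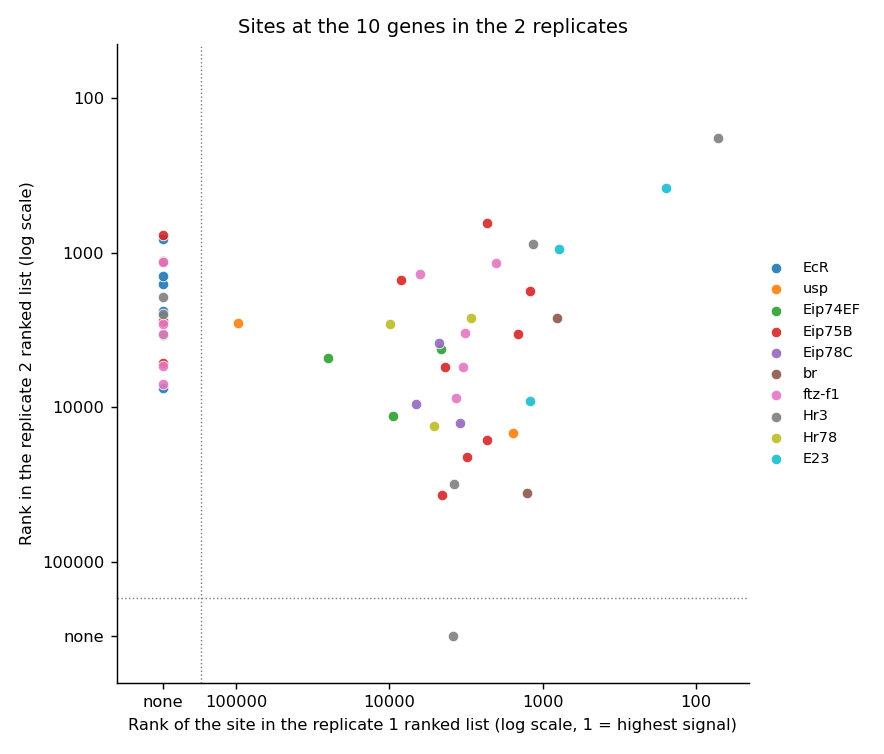
Rank of each of the 51 sites in the ranked list of replicate 1 (horizontal) and of replicate 2 (vertical), on log axes with the highest signals to the right and top, coloured by gene. Sites with no candidate stand at the margin marked none, and all 6 EcR sites are among those without one in replicate 1, while 1 site, of Hr3, has none in replicate 2.

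The imbalance at EcR was not limited to thresholded sites. Before any threshold, the EcR locus held 3 candidates in replicate 1 and 100 in replicate 2, although the replicate 1 list is the longer. ftz-f1 held 20 and 73, and Eip75B 75 and 127, while br held 120 in replicate 1 and 59 in replicate 2. As a background added after these values were seen, the share of replicate 1 among the candidates of both was computed for the 1048 protein-coding loci with at least 50. The share was 2.91% at EcR, 21.5% at ftz-f1 and 67.0% at br, where the median over those loci was 52.8% and the 5th and 95th percentiles were 22.1% and 88.0%. Of the 1048 loci, 5, EcR included, had a share of 2.91% or less. What differed between the replicates there was not tested.

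**Figure D5:**
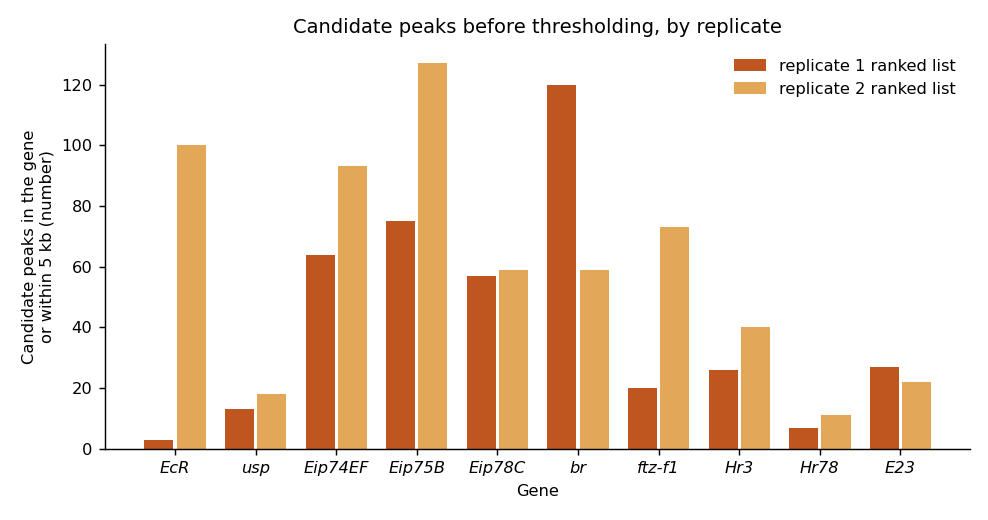
Number of candidate peaks in each locus in the ranked lists of replicate 1 and replicate 2, for the 10 genes. EcR had 3 and 100, and br, with 120 and 59, was the gene with the largest excess in replicate 1.

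Besides ATGGCGCC, 8 words were searched at the summits, of which 3 were present at a conservative peak of the 10 loci and the other 5 were not. CACTG, counted on both strands within 50 bp of the summit, was present at 2 of 15 conservative peaks (13.3%), those of Eip74EF and Eip75B, and at 20.2% of all. It was present in the larger set at 11 of 45 (24.4%) and at 21.4% of all. AGGTCA, the core word that many nuclear receptors bind, was at 0 of 15 and 2.01% of all conservative peaks, and its extension AAGGTCA, which contains it, at 0 of 15 and 0.871%. Among peaks of the larger set, AGGTCA was at 1 of 45 (2.22%), a ftz-f1 peak, and at 2.20% of all. TATAAA was at 3 of 15 (20.0%) and 23.1%, and GAGAG at 2 of 15 (13.3%) and 8.78%. TAATTA, TATCGATA and ATATTTTA were at 0 of 15, and at 11.1%, 1.74% and 6.37% of all. These are matches of letters in a window and not binding sites.

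The other genes of the ecdysone pathway were taken from 5 lists of 68 names, of which 64 matched a gene outside the 10. Of the 64, 8 had a conservative peak within 500 bp of a start and 28 one in the locus, where 12.7% and 36.3% of all protein-coding genes had one. None of the 9 genes of ecdysteroid synthesis and none of the 6 regulators of synthesis had a promoter peak in any of the 4 sets, where 12.7% to 20.5% of all genes had one, so a count of 0 in lists this short says little. Of the receptor cofactors and transport genes, 2 of 11 had one in the conservative set, as did 2 of 10 further nuclear receptors and 4 of 28 further response genes. The highest of these promoter signals was 999, rank 33, 247 bp from a start of Sox14, an HMG-box transcription factor induced by the hormone. Hsp83, a chaperone of nuclear receptors, had 301, the nuclear receptor genes Hr96 and ERR had 283 and 241, and Ldh, for lactate dehydrogenase, had 239. Sox14 thus had a higher signal than any peak of the 10 loci. Hr4, a nuclear receptor gene named here after its values were seen, had 9 conservative peaks in its locus and none at a promoter.

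By the number of conservative peaks in the locus, Eip75B with 4 was the highest of the 10, and 180 other protein-coding genes had as many or more, 63 of them more. The 5 with the most were kirre with 15, CG1677 with 12, CHES-1-like with 11, and Raf and sbb with 10 each. Of these 5, kirre is 394 kb long and CHES-1-like 27.0 kb, against 114 kb for Eip75B.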

How the data were processed

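Both samples were whole embryos, grouped by the replicate numbers in the labels. The 8 files are peak lists on assembly dm6, and the sources used here name no aligner and no peak caller. Going by the values in the files, the authors deposited a signal for every peak, a value of their peak caller, and a score, a whole number up to 1000 derived from the irreproducible discovery rate. None of the 428083 records on assembled arms ran past an arm's end. The 2 series ranked lists also hold 8 columns of per-input values, left unused because their samples could not be told. Gene models came from Ensembl release 115, and bases from RefSeq's copy of that assembly. Counting used Python 3.11.15 scripts that were tested on simulated peaks. Ranks are by signal. Lists were compared by an overlap of at least 1 bp. No test was run, since there is 1 group, and counts are set beside the same over all genes, promoters or peaks. The 10 genes and the lists were chosen with earlier results of these data known. The named genes are the 10, the gene of the closest start at each site, up to 5 pathway genes of highest promoter signal and the 5 genes with the most conservative peaks among those with at least as many as Eip75B. Some genes that overlap a summit are named too. Of the 68 pathway names, 4 did not match and were not used here. Alternatives were the other sets, the stronger 50% of the conservative peaks, windows of 200 and 1000 bp, flanks of 0 and 10 kb, other merging of starts, overlap in place of summit, other overlaps between replicates, other word windows, and the RefSeq annotation.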

Additional observations from a re-analysis of the deposited data

How the results depend on the processing

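Of 47 recomputed values, 30 stayed within 1.5 times the reported count or within the spread between replicates, and 17 moved. With the larger series set, 8 genes had a promoter peak in place of 3, 13 promoters in place of 5, 45 locus peaks in place of 15, and 11 peaks had CACTG in place of 2. Leaving out a replicate, which uses the set of the other alone, gave 3 to 6 genes with a promoter peak, 5 to 8 promoters, 21 to 28 locus peaks and 1 to 6 peaks with CACTG, with the higher count each time from replicate 2 alone. The median over the genes of the rank of the highest peak, in per cent of the list, was 41.6 in the conservative set, over the 8 genes with a peak there, 24.3 in the larger set, over all 10, and 30.0 to 31.8 with a replicate left out, over 7 or 8. Keeping only the stronger 50% of the conservative peaks left 5 genes with a locus peak in place of 8, 2 promoters and 8 locus peaks. A promoter window of 200 bp left 3 promoters, and a word window of 100 bp to each side gave 6 peaks with CACTG. The cause of these changes was not tested. The RefSeq annotation gave the reported counts for genes, promoters and peaks. Unknown depth limits what the absence of a peak shows, and a list holds no value for places below its own cut. No paired analysis was possible because the samples form 1 group.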
